A study of Danio rerio with 12 samples.

Results

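The Vegf and Tie receptor genes are the ligands and receptor tyrosine kinases through which vessels are built and kept. Described here are 10 of them, out of 32047 gene identifiers listed in each library: the Vegf ligand genes vegfaa, vegfab and vegfc, the Vegf receptor genes kdr, kdrl, flt1 and flt4, the Tie receptor genes tek and tie1, and the Tek ligand gene angpt1. They were chosen by name as a known pathway, with earlier results of these data at hand. They were matched by symbol through a zebrafish gene name table, in any letter case, and all 10 were found. The table gives many of them the capital symbol of the mammalian gene, and these forms are used below: VEGFC (ENSDARG00000069640), KDR (ENSDARG00000017321), kdrl (ENSDARG00000105215), flt1 (ENSDARG00000019371), FLT4 (ENSDARG00000104453), tek (ENSDARG00000028663), TIE1 (ENSDARG00000004105) and ANGPT1 (ENSDARG00000030364). Both vegfaa and vegfab carry the symbol VEGFA there, so the copies are called by their identifiers, ENSDARG00000034700 and ENSDARG00000103542.

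Vegfa is secreted mainly by cells outside the vessel wall lining and binds Kdr, Kdrl and Flt1 on endothelial cells. Kdr and Kdrl carry the main growth and survival signal in zebrafish vessels, while Flt1 binds Vegfa with high affinity and limits the ligand that reaches the other receptors. Vegfc acts through Flt4, which drives lymphatic and venous growth. Angpt1, usually made by mural, stromal or blood stem cells, activates Tek, and Tie1 is an endothelial partner of Tek that tunes its output. Together these signals maintain the sinusoids, the wide permeable vessels that form part of the niche of blood stem cells.

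The study profiled messenger RNA in 12 Quartz-seq libraries from sorted kidney cells of adult wild-type zebrafish, in 6 groups of 2 libraries. The niche set compared sinusoids, sorted for high uptake of acetylated low-density lipoprotein by their titles, pericytes, titled by pdgfrb, and ZKS cells, which share their name with a stromal culture line derived from the same organ. The double positive (DP) set held gata2a+ runx1+ cells grown on ZKS cells in the presence of IWR-1-endo and Thpo (treated cells below), grown on ZKS cells alone (co-cultured cells), or taken without culture (uncultured cells). IWR-1-endo inhibits Wnt signalling by stabilising the axin complex through tankyrase, and Thpo is the cytokine of megakaryocytes and blood stem cells. The labels name no reporter line, no number of animals, no age beyond adult and no pooling. They do not say whether the sequenced ZKS cells had been cultured before sorting, although DP cells were grown on ZKS cells. In every comparison with ZKS cells, culture and cell type therefore cannot be told apart. Replicates are not said to stem from different animals, and the p-values therefore cover only the spread seen between these libraries, which could be technical. All values are CPM, reads scaled to the same total in each library, and levels of different genes are not ranked against each other, because no gene lengths were used.

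The niche libraries held 6984492 to 16242092 reads, recovered from the CPM values, with 15545 to 20626 genes above 0. For the DP set the depth could not be read from the values, and between 7329 and 9712 genes had a value over 0. The sorted cells were read against marker lists. The 12 pan-endothelial markers summed to 3624 and 3973 CPM in sinusoids, 185.0 and 210.2 CPM in pericytes, and to 7.02 and 7.36 CPM in ZKS cells. PDGFRB, the receptor gene used to mark mural cells, was at 1.2 and 3.14 CPM in sinusoids, 125.46 and 123.85 CPM in pericytes, and at 30.99 and 31.58 CPM in ZKS cells. The 12 genes of the mural list totalled 2797 and 2088 CPM in pericytes, against 581.7 and 979.7 CPM in sinusoids. Within it rgs5b overlapped (sinusoids 275.42 and 568.03 CPM, pericytes 264.47 and 426.23 CPM), as did TAGLN ENSDARG00000033466 (202.88 and 372.98, then 156.86 and 316.84 CPM). The 7 stromal markers totalled 10550 and 11050 CPM in pericytes, mostly COL1A2 and DCN, against 54.89 and 34.78 CPM in sinusoids. The part of stromal cell RNA in the pericyte values was not tested. Blood cell RNA was present in the sorted vessel and mural libraries: the macrophage markers reached a total of 691.4 and 1309 CPM in sinusoids, and a total of 3299 and 4407 CPM in pericytes. ZKS cells had 1.74 and 2.31 CPM. These sums do not rank the groups by macrophage content, because a few genes carried them and the markers went both ways. In sinusoids cd74a made up 172.0 and 213.95 CPM, and in pericytes 2432.23 and 3250.92 CPM. MFAP4 ENSDARG00000116066 was at 1.65 and 0.31 CPM, then 490.7 and 835.28 CPM, and MFAP4 ENSDARG00000111491 at 3.44 and 0.12, then 191.97 and 166.23 CPM. The other way went MPEG1 (ENSDARG00000043093), at 145.0 and 259.02 CPM in sinusoids, against 18.7 and 10.02 CPM in pericytes. So did IRF8, at 226.51 and 636.62 CPM against 58.09 and 97.36 CPM. Erythroid markers summed to 2011 and 725.8 CPM in sinusoids, to 326.4 and 430.5 CPM in pericytes, and to 0.33 and 0.81 CPM in ZKS cells. Neutrophil markers summed to 1046 and 564.6 CPM in sinusoids, to 282.3 and 122.9 CPM in pericytes, and to 0 in both ZKS libraries. Most of these sums came from NCF1, at 983.38 and 553.81 CPM in sinusoids and 271.61 and 115.26 CPM in pericytes. mmp13a was at 60.65 and 10.65 CPM in sinusoids and 10.56 and 7.45 CPM in pericytes. lyz was at 2.24 and 0.18 CPM in sinusoids and 0.14 and 0.14 CPM in pericytes, so the sums do not measure neutrophil content. Some renal tubule markers differed between the sinusoid replicates: atp1a1a.4 was at 573.28 and 0.86 CPM and CDH17 at 365.76 and 0.12 CPM. In pericytes atp1a1a.4 was at 126.74 and 186.41 CPM and CDH17 at 70.65 and 141.74 CPM. SLC20A1 (ENSDARG00000010641), of the same list, was at 997.37 and 1076.34 CPM in sinusoids. The part of tubule RNA in the values below was not tested. In bulk RNA of this kind, fewer cells of a type and less RNA per cell cannot be told apart.

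Ligand and receptor genes were split between the niche groups. In sinusoids against pericytes, 5 of the 10 genes were higher (KDR, kdrl, FLT4, tek and TIE1), 2 were lower (both VEGFA copies) and 3 did not pass the test. The threshold was an adjusted p of 0.05 in limma, fitted and adjusted over all 15916 genes tested, of which 25.5% passed it (10.2% higher and 15.3% lower in sinusoids). In sinusoids against ZKS cells, 6 genes were higher (the same 5 and flt1), 3 were lower (both VEGFA copies and VEGFC) and 1 did not pass, with 31.6% of all genes passing (17.5% higher and 14.1% lower). Of these, flt1 reached the 1 CPM needed for testing only in the sinusoid libraries. In pericytes against ZKS cells, 4 were higher (VEGFA ENSDARG00000103542, FLT4, tek and TIE1), 1 was lower (KDR) and 5 did not pass, with 37.3% of all genes passing (22.6% higher and 14.7% lower). That last split depends on the scaling: 3597 genes were higher and 2344 lower with TMM scaling, against 3021 and 3168 with CPM as deposited. The 3 comparisons share libraries pairwise and are not independent of each other. Because the genes were chosen with earlier results of these data known, the counts are not a test of the list.

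**Figure D1:**
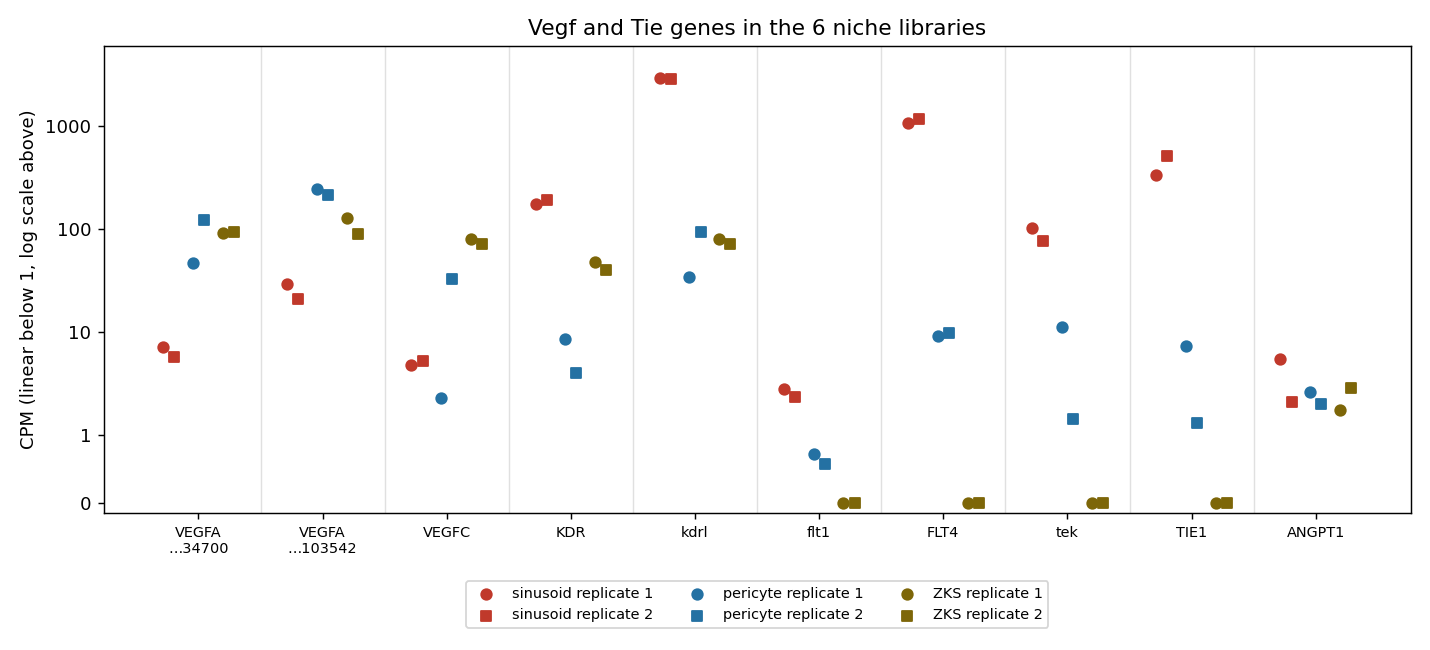
CPM of each of the 10 genes (x axis, with VEGFA copies shown by the last digits of their identifiers) in each niche library (y axis, linear below 1 and log above). Colours mark sinusoids, pericytes and ZKS cells, and circles and squares mark replicates 1 and 2. FLT4, tek, TIE1 and flt1 sit at 0 in both ZKS libraries, and both VEGFA copies are lowest in both sinusoid libraries.

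VEGFA ENSDARG00000034700 was at 7.1 and 5.73 CPM in sinusoids, 46.53 and 121.56 CPM in pericytes, and at 91.14 and 93.31 CPM in ZKS cells. Both sinusoid libraries lay below all 4 others, while the ZKS libraries lay between the pericyte libraries. The log2 change was -3.53 ± 0.48 in sinusoids against pericytes (SE, limma, adjusted p = 0.00327) and -3.41 ± 0.48 in sinusoids against ZKS cells (adjusted p = 0.00258). Log2 changes here are of CPM + 1 after scaling between libraries, which understates the change of low genes. For pericytes against ZKS cells the value was 0.12 ± 0.48 (adjusted p = 0.864), and it stood at -0.29 with CPM as deposited.

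VEGFA ENSDARG00000103542, the other copy of this main vascular growth factor, was at 29.39 and 20.93 CPM in sinusoids, 242.21 and 212.04 CPM in pericytes, and at 128.28 and 89.16 CPM in ZKS cells. The 3 groups did not overlap, with pericytes highest and sinusoids lowest. It was lower in sinusoids than in pericytes by a log2 change of -3.3 ± 0.27 (adjusted p = 0.000577) and lower than in ZKS cells by -1.82 ± 0.27 (adjusted p = 0.00346). Pericytes were higher than ZKS cells by 1.49 ± 0.27 (adjusted p = 0.00702), a ratio of mean CPM of 2.09. The calls against ZKS cells were each lost with 1 ZKS library left out, replicate 1 for sinusoids and replicate 2 for pericytes. Such a fit has fewer degrees of freedom, so the loss does not show that a call rested on that library. Both ZKS libraries lay above both sinusoid libraries and below both pericyte libraries.

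The balance of the VEGFA copies varied. The ratio of ENSDARG00000103542 to ENSDARG00000034700 in CPM was 4.14 and 3.65 in sinusoids, 5.21 and 1.74 in pericytes, and 1.41 and 0.956 in ZKS cells. Both ZKS ratios lay below the other 4, and pericyte replicate 2 lay nearer to ZKS cells than to pericyte replicate 1. These are ratios of unadjusted CPM, with no test, and how the counting treated reads that match both copies is not known.

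Podocytes, the filter cells of the glomerulus, are a known strong source of Vegfa in the kidney. Markers of podocytes were found beside the high VEGFA values of pericytes. WT1, a podocyte transcription factor gene, was at 0 and 0 CPM in sinusoids, 25.69 and 16.04 CPM in pericytes, and at 0 and 0 CPM in ZKS cells. NPHS1, which codes for the slit diaphragm protein nephrin, was at 2.02 and 0.06 CPM in sinusoids, 2.71 and 29.78 CPM in pericytes, and at 0 and 0.4 CPM in ZKS cells. wt1b, the other copy of that factor gene, was at 0.07 and 0.25 CPM in sinusoids, at 62.51 and 82.18 CPM in pericytes, and at 1.51 and 0.81 CPM in ZKS cells. podxl, which codes for a surface sialomucin of podocytes and of endothelium, was at 24.23 and 74.44 CPM in sinusoids, at 34.54 and 185.41 CPM in pericytes, and at 0 and 0.2 CPM in ZKS cells. Pericyte replicate 2 was the higher pericyte library for NPHS1, wt1b and podxl, as it was for VEGFA ENSDARG00000034700. In ZKS cells WT1 and NPHS1 were at or near 0, and the VEGFA copies were at 89.16 to 128.28 CPM. The part of podocyte or macrophage RNA in the pericyte values was not tested.

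VEGFC, the ligand of Flt4, was at 4.79 and 5.17 CPM in sinusoids, 2.28 and 32.5 CPM in pericytes, and at 79.91 and 71.65 CPM in ZKS cells. ZKS cells were highest in both libraries, and the pericyte libraries fell on either side of the sinusoids, with 16 and 227 recovered reads. In sinusoids against ZKS cells the log2 change was -3.43 ± 1.0 (adjusted p = 0.0398). That call was not stable: with any 1 of the 4 libraries left out the adjusted p ran between 0.118 and 0.152, and it was 0.0864 with no filter on low genes and 0.0514 with edgeR on recovered reads. Against pericytes, sinusoids had a VEGFC change of -0.94 ± 1.0 (adjusted p = 0.54), and its direction depended on the pericyte library: without replicate 1 it passed, at -2.65 (adjusted p = 0.018), and without replicate 2 it was 0.8 (adjusted p = 0.264). In pericytes against ZKS cells it was at -2.49 ± 1.0 (adjusted p = 0.0937), and without pericyte replicate 2 it passed, at -4.19 (adjusted p = 0.00673).

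Summed over both VEGFA copies and VEGFC, the ligand genes stood at 41.28 and 31.83 CPM in sinusoids, 291.0 and 366.1 CPM in pericytes, and at 299.3 and 254.1 CPM in ZKS cells. Summed over KDR, kdrl, flt1 and FLT4, the Vegf receptor genes stood at 4193 and 4236 CPM in sinusoids, 52.51 and 107.2 CPM in pericytes, and at 126.2 and 110.2 CPM in ZKS cells. Sinusoids were therefore lowest of the 3 groups in the ligand sum and highest in the receptor sum, in both libraries.

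**Figure D2:**
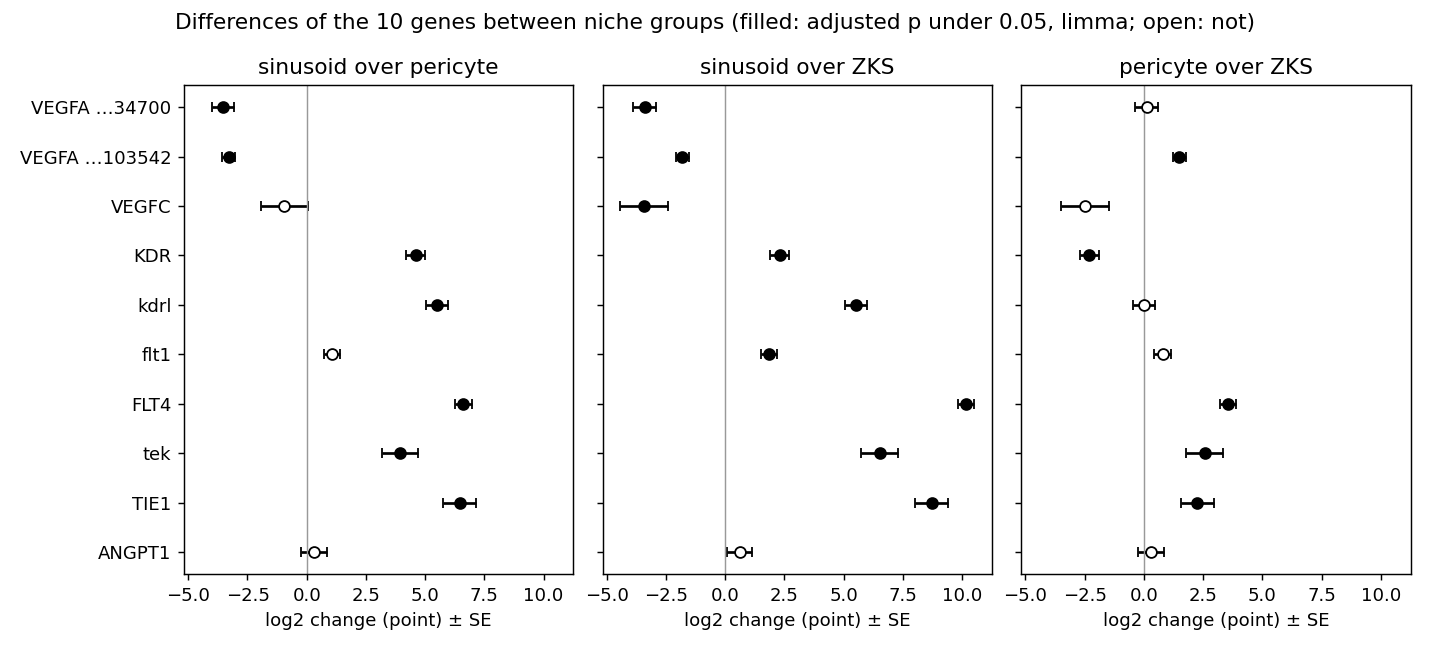
Log2 change of CPM + 1 (x axis, point, with the SE of limma as bars) for each of the 10 genes (y axis) in sinusoids over pericytes, sinusoids over ZKS cells and pericytes over ZKS cells. Filled points passed an adjusted p of 0.05. The Vegf ligand genes lie left of 0 and the receptor genes right of 0 in both sinusoid panels, and KDR lies left of 0 in pericytes over ZKS cells.

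FLT4, the receptor of Vegfc, was at 1064.9 and 1180.94 CPM in sinusoids, 9.13 and 9.74 CPM in pericytes, and at 0 and 0 CPM in ZKS cells. The groups did not overlap, and the replicates of each lay close together. Sinusoids averaged 1123 ± 82.1 CPM against 9.435 ± 0.431 CPM in pericytes (SD, n = 2 each), a 119-fold ratio of means and a log2 change of 6.61 ± 0.35 (adjusted p = 0.000149). Against ZKS cells the ratio was at least 3470-fold, taking the 0 of ZKS cells as no more than 3 reads in a library, the floor used for every bound below. The log2 change there was 10.16 ± 0.35 (adjusted p = 2.73e-05). Pericytes were higher than ZKS cells at least 29.1-fold (log2 change 3.56 ± 0.35, adjusted p = 0.000765), and the pericyte values rested on 64 and 68 reads. Floors cover counting error only, and no molecular identifiers are described, so PCR copies of a read are not independent.

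kdrl, the receptor whose promoter is widely used to mark zebrafish endothelium, was at 2950.45 and 2863.18 CPM in sinusoids, 34.25 and 92.92 CPM in pericytes, and at 78.93 and 70.74 CPM in ZKS cells. Sinusoids stood far above the rest, and the ZKS libraries lay between the pericyte libraries. Sinusoids averaged 2907 ± 61.7 CPM against 63.59 ± 41.5 CPM in pericytes (SD, n = 2 each), with a log2 change of 5.5 ± 0.47 (adjusted p = 0.000644). Against 74.84 ± 5.79 CPM in ZKS cells the log2 change was 5.51 ± 0.47 (adjusted p = 0.000392). Between pericytes and ZKS cells it was 0.01 ± 0.47 (adjusted p = 0.993), from -0.69 to 0.78 over the alternatives tried.

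KDR, the second fish receptor of this type, was at 174.99 and 189.14 CPM in sinusoids, 8.42 and 4.01 CPM in pericytes, and at 47.3 and 39.47 CPM in ZKS cells. The order was sinusoids, ZKS cells, pericytes, with no overlap. It was 29.3-fold higher in sinusoids than in pericytes by mean CPM (log2 change 4.6 ± 0.4, adjusted p = 0.000683) and 4.2-fold higher than in ZKS cells (2.3 ± 0.4, adjusted p = 0.00608). Pericytes were lower than ZKS cells, with a log2 change of -2.31 ± 0.4 (adjusted p = 0.00561). The ZKS values rested on 438 and 390 reads. The calls against ZKS cells were lost without 1 library: the adjusted p was 0.0577 for sinusoids without ZKS replicate 2 and 0.0527 for pericytes without ZKS replicate 1.

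flt1, the receptor that limits free Vegfa, was at 2.77 and 2.34 CPM in sinusoids, 0.71 and 0.57 CPM in pericytes, and at 0 and 0 CPM in ZKS cells. These were 37 and 38 reads in sinusoids, 5 and 4 reads in pericytes and none in ZKS cells. Only the sinusoid libraries reached the 1 CPM needed for testing. The gene was thus tested only because it was high there, and its call is not independent support. Sinusoids were higher than ZKS cells at least 7.89-fold (log2 change 1.85 ± 0.35, adjusted p = 0.00862), a call lost without either ZKS library (adjusted p = 0.128 and 0.13). Against pericytes the log2 change of sinusoids was 1.06 ± 0.35 (adjusted p = 0.0701). In pericytes against ZKS cells it was 0.79 ± 0.35 (adjusted p = 0.123), and DESeq2 on recovered reads called it higher, at 5.55 (adjusted p = 0.035).

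TIE1 was at 331.13 and 509.91 CPM in sinusoids, 7.28 and 1.29 CPM in pericytes, and at 0 and 0 CPM in ZKS cells. Every sinusoid library stood above every pericyte library, and these above ZKS cells. Sinusoids averaged 420.5 ± 126 CPM against 4.285 ± 4.24 CPM in pericytes (SD, n = 2 each), a 98.1-fold ratio with a log2 change of 6.46 ± 0.7 (adjusted p = 0.00153). Against ZKS cells the ratio was at least 1300-fold (8.72 ± 0.7, adjusted p = 0.00032). The ratio of pericytes to ZKS cells was at least 13.2-fold (2.26 ± 0.7, adjusted p = 0.0424).

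tek, the receptor of Angpt1, was at 102.75 and 76.59 CPM in sinusoids, 10.99 and 1.43 CPM in pericytes, and at 0 and 0 CPM in ZKS cells. The order of the groups was that of TIE1, and replicate 1 was the higher pericyte library for both genes. The ratio of sinusoid to pericyte means was 14.4-fold (log2 change 3.94 ± 0.77, adjusted p = 0.0122), a call lost without sinusoid replicate 2 (adjusted p = 0.0609) and with edgeR on recovered reads (adjusted p = 0.0547). Against ZKS cells it was at least 277-fold (6.52 ± 0.77, adjusted p = 0.00136). Pericytes stood at least 19.2-fold above ZKS cells (2.57 ± 0.77, adjusted p = 0.0379).

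The pericyte calls of tek and TIE1 over ZKS cells rested on few reads, 77 and 10 for tek and 51 and 9 for TIE1. Both were lost with no filter on low genes (adjusted p = 0.0721 for tek and 0.0804 for TIE1), with a pseudocount of 5 (0.116 and 0.193), and without pericyte replicate 1 (0.076 and 0.138) or either ZKS library (0.143 to 0.151 for the pair).

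ANGPT1, the activating ligand of Tek, was low throughout the niche libraries. It was at 5.38 and 2.09 CPM in sinusoids, 2.57 and 2.0 CPM in pericytes, and at 1.73 and 2.83 CPM in ZKS cells, which is 14 to 72 reads per library. The 3 groups overlapped. The log2 change was 0.31 ± 0.53 in sinusoids against pericytes (adjusted p = 0.707), 0.61 ± 0.53 in sinusoids against ZKS cells (adjusted p = 0.422) and 0.3 ± 0.53 in pericytes against ZKS cells (adjusted p = 0.686).

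The low receptor values of pericytes and ZKS cells were set beside markers of endothelium, each as a percentage of its sinusoid mean. In pericytes the 12 pan-endothelial markers ran from 0.3% to 111% in replicate 1 (median 6.15%) and from 0% to 151% in replicate 2 (median 7.03%). KDR was at 4.62% and 2.2% there, kdrl at 1.18% and 3.2%, FLT4 at 0.813% and 0.867%, and TIE1 at 1.73% and 0.307%. tek was at 12.3% and 1.59%, and flt1 at 27.8% and 22.3% on its few reads. cdh5, the junction cadherin gene of endothelium, was at 0.597% and 0.309% in pericytes, and the 1 marker above 100% was a CLDN5 copy (ENSDARG00000043716). All 6 receptor genes of pericytes fell within the range of the endothelial markers, but that range is too wide to set genes apart. KDR, kdrl, FLT4 and TIE1 lay below the marker median in both pericyte libraries. tek lay above it in replicate 1 and below it in replicate 2, and flt1 lay above it in both. The part of endothelial RNA in the pericyte values was not tested.

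In ZKS cells the same markers ran from 0% to 2.3% in replicate 1, with 7 of 12 at 0, and from 0% to 3.74% in replicate 2, with 4 of 12 at 0. cdh5, ERG and the CLDN5 copy ENSDARG00000014059 were at 0 in both ZKS libraries, as were FLT4, tek, TIE1 and flt1. kdrl, at 2.72% and 2.43% of its sinusoid mean, was above the highest marker in replicate 1 and below it in replicate 2. KDR was at 26.0% and 21.7%, above the highest marker in both ZKS libraries.

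**Figure D3:**
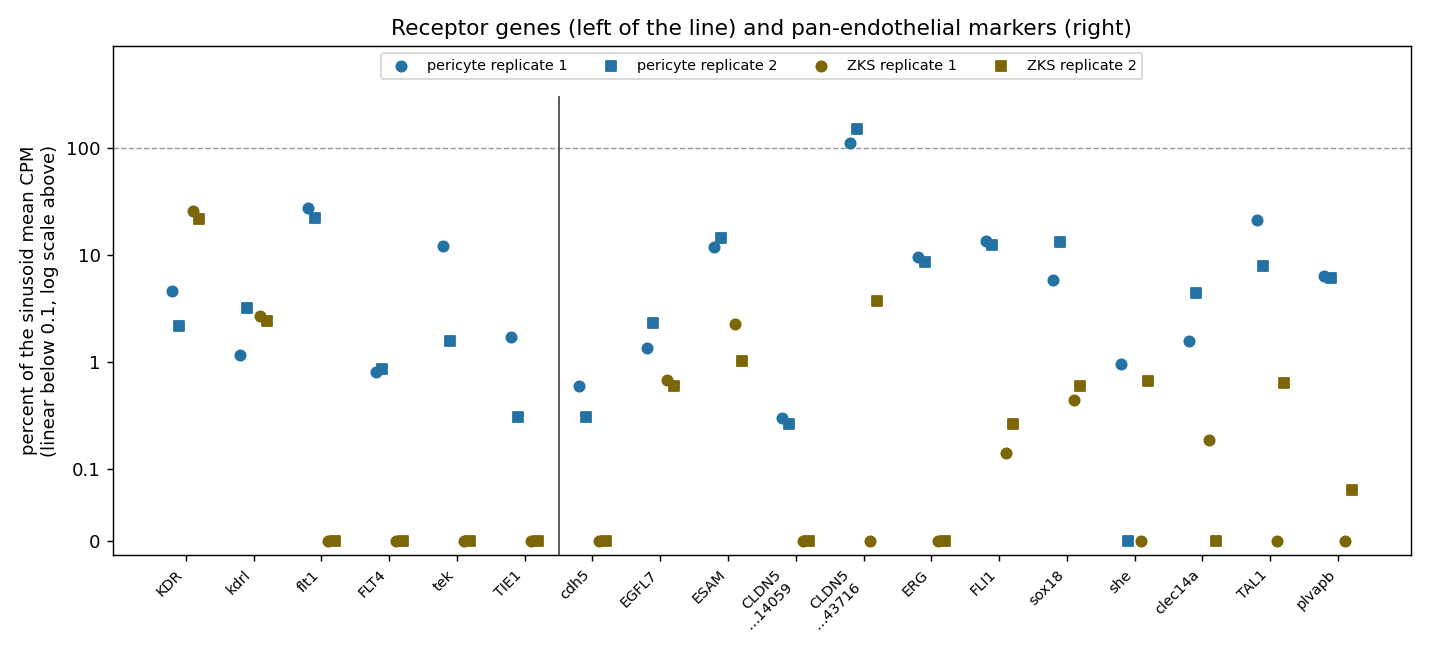
Level of each receptor gene (left of the vertical line) and of each of the 12 pan-endothelial markers (right of it) in pericyte and ZKS libraries, as a percentage of its mean CPM in sinusoids (y axis, linear below 0.1 and log above, with 100% dashed). Each point is 1 library. KDR, at 26.0% and 21.7%, stands above every endothelial marker in the ZKS libraries, where FLT4, tek, TIE1 and cdh5 are at 0.

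Other genes of the pathway came from a list of 61 symbols covering ligand processing, coreceptors, signal carriers, oxygen sensing, response genes and endothelial transcription factors. Of these symbols 4 had no match, and the rest gave 56 genes beside the 10, of which 50 passed the filter on low values. In sinusoids against pericytes 18 were higher and 16 lower, beside 10.2% and 15.3% of all genes tested. The median log2 change was 0.23, beside 0.0 for all genes. In sinusoids against ZKS cells 25 were higher and 7 lower, beside 17.5% and 14.1% of all genes (median 1.48, beside 0.089). In pericytes against ZKS cells 28 were higher and 4 lower, beside 22.6% and 14.7% (median 1.74, beside 0.191). The same shares stand beside the counts for each part of the list below. Calls kept with each library of the comparison left out in turn were 11 of the 18 and 7 of the 16, then 18 of the 25 and 3 of the 7, then 16 of the 28 and 2 of the 4.

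Among the further ligand and processing genes, 7 of 11 were tested. In sinusoids against pericytes 1 was higher and 3 were lower. VEGFD, a further Vegf ligand gene, was at 0.15 and 0 CPM in sinusoids, 12.13 and 23.48 CPM in pericytes, and at 0 and 0 CPM in ZKS cells. Its log2 change in sinusoids against pericytes was -4.26 ± 0.51 (limma, adjusted p = 0.00211). VEGFD reached the 1 CPM needed for testing only in the pericyte libraries, so it was tested only because it was high there. CCBE1, whose product is needed for Vegfc to be cleaved to its active form, was at 4.79 and 0.99 CPM in sinusoids, 51.38 and 87.19 CPM in pericytes, and at 24.62 and 32.89 CPM in ZKS cells. It was lower in sinusoids than in pericytes (-4.52 ± 0.54, adjusted p = 0.00213) and than in ZKS cells (-2.92 ± 0.54, adjusted p = 0.00762), the last call lost without ZKS replicate 2 (0.0708). SVEP1, a matrix protein that binds Tie1 in vertebrates, was at 5.68 and 6.96 CPM in sinusoids, 117.75 and 86.05 CPM in pericytes, and at 555.46 and 525.37 CPM in ZKS cells. The groups did not overlap, and each pair differed: -3.96 ± 0.32 in sinusoids against pericytes (adjusted p = 0.00054), -5.96 ± 0.32 in sinusoids against ZKS cells (adjusted p = 8.49e-05) and -2.0 ± 0.32 in pericytes against ZKS cells (adjusted p = 0.00427).

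angpt2b, a Tek ligand that in mammals can block Angpt1, was the 1 gene of this group higher in sinusoids than in pericytes. It was at 16.0 and 40.39 CPM in sinusoids, 2.85 and 3.87 CPM in pericytes, and at 0 and 0 CPM in ZKS cells. The log2 change was 4.76 ± 0.68 in sinusoids against ZKS cells (adjusted p = 0.00276). Against pericytes it was 2.5 ± 0.68 (adjusted p = 0.037), and that call was kept in 1 of 4 fits that left out a library, with adjusted p up to 0.113.

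All 6 coreceptor and partner genes were tested. In sinusoids against ZKS cells 5 were higher and 1 was lower. NRP1, a Vegfa coreceptor of endothelium, was at 70.97 and 73.88 CPM in sinusoids, 22.69 and 19.04 CPM in pericytes, and at 0.54 and 0.2 CPM in ZKS cells (sinusoids against ZKS cells 5.84 ± 0.41, adjusted p = 0.000205). NRP2, a coreceptor of Flt4, has 2 copies under that symbol. Copy ENSDARG00000038446 was at 36.49 and 60.71 CPM in sinusoids, 38.39 and 61.56 CPM in pericytes, and at 1.94 and 0.61 CPM in ZKS cells. Copy ENSDARG00000096546 was highest in ZKS cells, where the first copy was lowest, and stood at 0.37 and 0 CPM in sinusoids, 94.77 and 53.98 CPM in pericytes, and at 307.42 and 301.4 CPM in ZKS cells. In sinusoids against ZKS cells the first copy was higher (4.61 ± 0.54, adjusted p = 0.00136) and the second lower (-7.83 ± 0.38, adjusted p = 6.41e-05).

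ptprb, the phosphatase that switches off Tek, was at 686.65 and 539.59 CPM in sinusoids, 3.85 and 9.45 CPM in pericytes, and at 14.25 and 15.69 CPM in ZKS cells. It was higher in sinusoids than in pericytes (6.29 ± 0.42, adjusted p = 0.000287) and than in ZKS cells (5.49 ± 0.42, adjusted p = 0.000271). cdh5, whose product associates with Kdr in mammals and is also 1 of the 12 endothelial markers, was at 795.23 and 684.95 CPM in sinusoids, 4.42 and 2.29 CPM in pericytes, and at 0 and 0 CPM in ZKS cells. Its log2 change was 7.34 ± 0.41 in sinusoids against pericytes (adjusted p = 0.000171).

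Oxygen sensing genes, which control VEGFA transcription, did not move as 1 group. Of the 6, 4 were higher and 1 was lower in sinusoids against pericytes. hif1aa was at 72.24 and 92.72 CPM in sinusoids, 12.42 and 10.88 CPM in pericytes, and at 0.22 and 0 CPM in ZKS cells (2.57 ± 0.46 in sinusoids against pericytes, adjusted p = 0.0094). HIF1A (ENSDARG00000034293) was at 963.04 and 782.17 CPM in sinusoids, at 410.34 and 191.14 CPM in pericytes, and at 499.74 and 471.63 CPM in ZKS cells. It was also higher in sinusoids than in pericytes (1.47 ± 0.37, adjusted p = 0.0288), a call kept in 1 of 4 fits that left out a library, with adjusted p up to 0.0954. The EPAS1 copies went opposite ways. EPAS1 copy ENSDARG00000057671 was at 17.95 and 23.58 CPM in sinusoids, 1.14 and 1.15 CPM in pericytes, and at 0 and 0 CPM in ZKS cells (3.26 ± 0.52 in sinusoids against pericytes, adjusted p = 0.00596). EPAS1 copy ENSDARG00000008697 was at 1.72 and 2.34 CPM in sinusoids, 19.55 and 16.47 CPM in pericytes, and at 0.22 and 0.2 CPM in ZKS cells (-2.8 ± 0.51, adjusted p = 0.00959). EGLN3, a hydroxylase gene induced by low oxygen, was at 15.18 and 12.13 CPM in sinusoids, 3.0 and 2.43 CPM in pericytes, and at 35.85 and 37.14 CPM in ZKS cells. It was lower in pericytes than in ZKS cells (-2.98 ± 0.39, adjusted p = 0.00204).

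Genes known to respond to Vegf signals did not share 1 direction in the comparisons of sinusoids. Of 11 tested, 1 was higher and 5 were lower in sinusoids against pericytes. In sinusoids against ZKS cells 5 were higher and 2 lower. In pericytes against ZKS cells 8 were higher and 0 lower. The calls there of dll4 and of both genes matched as CXCR4 held under every alternative. Those of DUSP5, SPRY4, rcan1a, SPRY2 and APLN were lost in some fits without 1 library, and that of DUSP5 also with CPM as deposited. Moreover, rcan1a reached the 1 CPM needed for testing only in niche libraries of pericytes. Of the 5 lower in sinusoids than in pericytes, DUSP5 kept its call under every alternative. The calls of rcan1a and NR4A1 were lost with CPM as deposited, and those of EGR3 and APLN in some fits without 1 library. dll4, a Notch ligand gene of vessels, was at 320.81 and 374.46 CPM in sinusoids, 41.11 and 31.78 CPM in pericytes, and at 0.43 and 0.61 CPM in ZKS cells. It was higher in sinusoids than in pericytes (3.07 ± 0.36, adjusted p = 0.0021) and than in ZKS cells (7.94 ± 0.36, adjusted p = 5.15e-05). DUSP5, a phosphatase of Erk, was at 2.39 and 6.16 CPM in sinusoids, 116.47 and 204.31 CPM in pericytes, and at 63.38 and 60.52 CPM in ZKS cells (sinusoids against pericytes -5.12 ± 0.53, adjusted p = 0.00134). Many of these genes are also used by blood and stromal cells, whose markers differed between the groups.

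Of 17 tested endothelial transcription factor genes, 8 were higher and 5 lower in sinusoids against pericytes, and 9 were higher and 1 lower in sinusoids against ZKS cells. FLI1, an Ets factor of endothelium and blood, was at 454.97 and 460.35 CPM in sinusoids, 62.09 and 57.27 CPM in pericytes, and at 0.65 and 1.21 CPM in ZKS cells (sinusoids against pericytes 2.76 ± 0.33, adjusted p = 0.00204). sox18, a factor of venous and lymphatic endothelium, was at 261.96 and 412.69 CPM in sinusoids, 19.84 and 44.81 CPM in pericytes, and at 1.51 and 2.02 CPM in ZKS cells (3.26 ± 0.53, adjusted p = 0.00645). klf2b, a factor induced by blood flow, was at 308.33 and 607.25 CPM in sinusoids, 50.38 and 40.8 CPM in pericytes, and at 9.61 and 12.04 CPM in ZKS cells (3.07 ± 0.48, adjusted p = 0.0053). The 5 lower in sinusoids than in pericytes were ets2, klf2a, PROX1, FOXC1 and foxc1b. Of these calls, that of foxc1b held under every alternative. The ets2 call was lost with CPM as deposited (limma, adjusted p = 0.0659) and in every fit without 1 library. PROX1 lost its call with no filter on low genes (limma, adjusted p = 0.06) and with edgeR on recovered reads (adjusted p = 0.143), and FOXC1 without pericyte replicate 1. klf2a, the other klf2 copy, was at 4.79 and 6.46 CPM in sinusoids and 24.12 and 20.47 CPM in pericytes (-1.97 ± 0.44, adjusted p = 0.0201). That call was lost with edgeR on recovered reads (adjusted p = 0.0609).

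The genes closest in pattern to each member were taken by Pearson's r of log2(CPM + 1) over the 6 niche libraries, among 7945 genes with a mean of at least 10 CPM. With 6 points in 3 groups, r mostly reflects the order of the groups, and it is given as a description. FLT4 lay closest to sele (r = 0.9999), SCARF1 (0.9994) and si:ch211-178n15.1 (0.998), and 346 genes had r over 0.95 with it. TIE1 lay closest to CYTH3 (0.9993), rarres3l (0.9993) and plvapa (0.998), with 295 such genes, and tek to MICALL2 (0.9988), wnk4b (0.998) and fgd4b (0.9974), with 228. kdrl lay closest to ME3 (0.9957), csf1b (0.9955) and MARK3 (0.995), with 157, and KDR to SASH1 (0.9974), RENBP (0.994) and ASAH1 (0.9923), with 91.

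Among the ligands, VEGFA ENSDARG00000034700 lay closest to PTPN3 (0.9969), si:ch211-59h6.1 (0.9939) and COL10A1 (0.9932), with 126 genes over 0.95. VEGFA ENSDARG00000103542 lay closest to ENSDARG00000088739 (0.9985), LMOD1 (0.9964) and SPECC1 (0.9962), with 167. VEGFC lay closest to ZFR (0.9891), VIRMA (0.988) and TCEA2 (0.9857), with 29. The nearest genes of the VEGFA copies did not coincide. flt1 and ANGPT1 were below the minimum mean for this search.

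In the DP libraries most of the 10 genes were at or near 0. VEGFC, kdrl, flt1 and FLT4 were listed at 0 in all 6 libraries. VEGFA ENSDARG00000034700 was listed at 1.2 CPM in uncultured replicate 2 and at 0 in the other 5. VEGFA ENSDARG00000103542 was listed at 0.2 CPM in treated replicate 2 and at 0 elsewhere. TIE1 was listed at 19.7 CPM in co-cultured replicate 2 and at 0 elsewhere. Depth is unknown here, so nothing more than the listed 0 can be read from these values.

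ANGPT1 was the 1 member above 0 in all 6 DP libraries. It was at 188.6 and 488.8 CPM in cells co-cultured with IWR-1-endo and Thpo, 143.0 and 0.2 CPM in co-cultured cells, and 208.0 and 123.7 CPM in uncultured cells. Co-cultured replicate 2 stood apart at 0.2 CPM, and the other 5 libraries ran from 123.7 to 488.8 CPM. The niche libraries, a separate set that was not tested against this one, had 1.73 to 5.38 CPM. The log2 change was 4.45 ± 2.26 in treated against co-cultured cells (adjusted p = 0.675) and 1.01 without co-cultured replicate 2. It was 0.73 ± 2.26 in treated against uncultured cells (adjusted p = 0.928), and -3.72 ± 2.26 in co-cultured against uncultured cells (adjusted p = 0.742), or -0.28 without co-cultured replicate 2.

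tek was listed at 163.8 and 0 CPM in treated cells, 0 and 0 CPM in co-cultured cells, and 26.5 and 0 CPM in uncultured cells. In each group where it was found, 1 of the 2 libraries carried it. KDR was listed at 3.4 and 0 CPM in treated cells, 14.4 and 0 CPM in co-cultured cells, and 1.0 and 0 CPM in uncultured cells. For both genes it was replicate 1 that held the value.

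**Figure D4:**
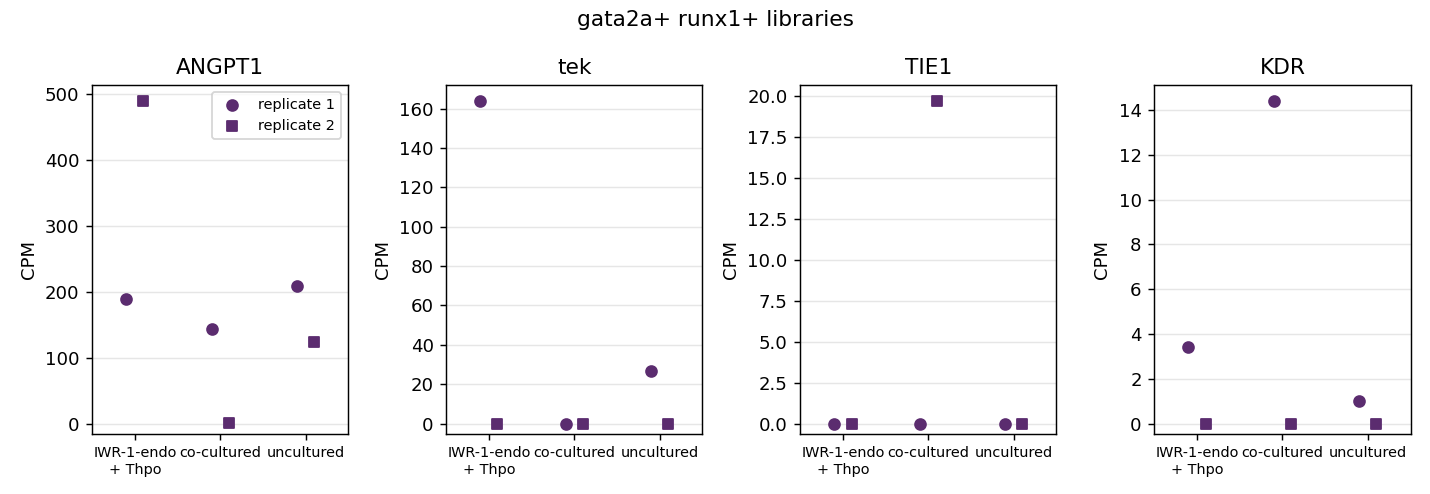
CPM (y axes, linear, each with its own range) of members above 0 in the DP libraries, with the 3 DP groups along the x axis from cells co-cultured with IWR-1-endo and Thpo to uncultured cells. Circles are replicate 1 and squares replicate 2. ANGPT1 is at 123.7 CPM or more in 5 of 6 libraries and at 0.2 CPM in co-cultured replicate 2, while tek is above 0 in 1 library of the treated and 1 of the uncultured group.

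Only ANGPT1, tek and KDR of the 10 reached 1 CPM in at least 2 DP libraries and could be tested. None passed in any of the 3 DP comparisons, and of all 8795 genes tested 0 passed, 0% in each comparison. At an unadjusted p under 0.05 limma gave 844 genes in treated against co-cultured cells, 1183 in treated against uncultured cells and 994 in co-cultured against uncultured cells, and no other tool was run on these files. For tek the log2 changes were 3.62, 1.2 and -2.42 (± 2.86) and for KDR -0.93, 0.51 and 1.44 (± 1.54) in the same order of comparisons, with adjusted p of 0.769, 0.907 and 0.854 for tek and 0.883, 0.926 and 0.837 for KDR (limma, SE). Of the 56 other pathway genes, 23 were tested here and 0 passed.

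Markers of blood stem cells and of endothelium were read in the DP libraries too, and neither list went 1 way. MYB, a factor of blood progenitors, was at 226.8 and 315.4 CPM in treated cells, 184.1 and 137.3 CPM in co-cultured cells, and 146.1 and 176.3 CPM in uncultured cells. The 12 pan-endothelial markers summed to 1325 to 3299 CPM, with 3 to 5 of them above 0. FLI1, which blood cells also express, was at 2102.9 and 2797.4 CPM in treated cells, 2740.0 and 1944.0 CPM in co-cultured cells, and 1481.0 and 1108.4 CPM in uncultured cells. ERG was at 0 and 4.7 CPM in treated cells, 0.2 and 165.2 CPM in co-cultured cells, and 254.3 and 102.1 CPM in uncultured cells. clec14a, an endothelial surface lectin gene, was at 196.4 and 121.8 CPM in treated cells, 181.5 and 0.2 CPM in co-cultured cells, and 0.4 and 39.6 CPM in uncultured cells. cdh5, EGFL7, sox18 and plvapb were listed at 0 in all 6, as was the stem cell receptor gene KIT. RUNX1, 1 of the genes by which the cells are labelled, was listed at 0 and 0 CPM in treated cells, 0.1 and 0 CPM in co-cultured cells, and 6.3 and 6.1 CPM in uncultured cells. GATA2 (ENSDARG00000059327), the match for gata2a, was at 319.8 and 9.1 CPM in treated cells, 33.1 and 127.9 CPM in co-cultured cells, and 45.3 and 177.5 CPM in uncultured cells.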

How the data were processed

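Per the labels' protocols, RNA from sorted cells was amplified by Quartz-seq (oligo-dT reverse transcription, poly-A tailing and PCR), with no molecular identifiers described. Per the submitters' processing notes, HISAT2 2.1.0, Subread 1.6.4 and genome build GRCz11 were used, with no settings recorded. CPM were deposited by the authors for each library, to 2 decimals in the niche set and 1 decimal in the DP set. In the niche set values were multiples of 1 read's worth for 99.99% to 100% of genes (tolerance 0.1 read), which gave the reads; the step of ZKS replicate 2, 0.101 CPM, is so close to the rounding unit 0.1 that its low values do not settle the depth by themselves. Columns of other series numbered 0.

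Samples were grouped by title. A gene was tested if 2 or more libraries of its set reached 1 CPM, which held for 15916 niche and 8795 DP genes. Libraries were scaled by TMM (edgeR 4.0.16), a pseudocount of 1 was added, and log2 values were fitted with limma 3.58.1 under R 4.3.3, using a trended prior. Each set had its own model of 6 libraries in 3 groups, leaving 3 residual degrees of freedom. Two-sided p-values were corrected over the whole table (Benjamini-Hochberg). The script was tested on simulated data. Alternatives were CPM as deposited, other filters and pseudocounts, 4 libraries only, a replicate block, each library left out, and edgeR and DESeq2 1.42.0 on recovered reads.

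Symbols were found for 28978 of 32047 identifiers. Named were all 10 members and other pathway genes that passed a niche test; of the latter, those given with values were picked after their values were seen, the rest being counted. The members and lists were chosen with earlier results of these data known. Sequences and coordinates were not used here, and 1 podocyte marker is not reported here.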

Additional observations from a re-analysis of the deposited data

How the results depend on the processing

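Over all alternatives, 442 of 469 member values kept their direction where called and their side of the threshold, 24 lost the call, 3 gained it and 0 reversed; those lost or gained are given beside each gene. In sinusoids against pericytes 4054 genes passed, against 2347 with the 4 compared libraries alone, 2001 with edgeR, and 1964 to 3837 with 1 library left out. Without 1 library the count was 1765 to 4593 for sinusoids against ZKS cells (5023 with all) and 1852 to 4042 for pericytes against ZKS cells (5941 with all). Members called in pericytes against ZKS cells numbered 5, against 3 with no filter, 3 with a pseudocount of 5, and 2 to 6 with 1 library left out; fewer libraries leave fewer degrees of freedom. With CPM as deposited the median log2 change of all genes moved to 0.118 in sinusoids against pericytes (0.0 with TMM), -0.033 in sinusoids against ZKS cells (0.089), -0.098 in pericytes against ZKS cells (0.191) and -0.505 in treated against uncultured DP cells (-0.629). Member counts then stayed at 7, 9 and 5. Replicate numbers share only a number: deviations of same-numbered niche samples correlated at -0.0113 to 0.0639. With the replicate block 3806, 4902 and 5816 genes passed in the 3 niche comparisons, and no member's call changed. In DP cells 0 genes passed under every alternative run; the count tests could not be run there. A fit without 1 library assumes that the lone sample of its group varies like the others.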
